A study of Drosophila melanogaster with 14 samples.

Results

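The sex by genotype interaction of sesB1 was taken from 14 Affymetrix Drosophila 2.0 arrays, fitted together as 4 groups. The 14 arrays are all arrays of the series. For each of 18769 probesets the interaction is the change from wild-type to sesB1 females minus the change from wild-type to sesB1 males, on the log2 scale, so a positive value means that the change in females was the more upward of the 2. Each probeset was then placed by its sex difference in wild-type flies. It was called alike where the wild-type means of females and males lay within 1 log2 of each other, female-biased where females were higher by more than that, and male-biased where males were. By this rule 12727 probesets (67.8%) were alike, 3398 (18.1%) were female-biased and 2644 (14.1%) were male-biased. Among 11981 genes with a probeset of their own, 6866 were alike, 2847 were female-biased and 2268 were male-biased.

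The study asked how gene expression in flies with the sesB1 mutation differs from that of wild-type flies. Total RNA was taken from whole flies, isolated from batches of 30. Each wild-type group, females or males, had 3 arrays, and each sesB1 group had 4. The methods describe triplicate RNA isolations, and do not explain the additional array of each sesB1 group. The sesB1 flies were the progeny of homozygous sesB1 mothers in the Canton S background and sesB1 fathers in the Oregon R background, and the wild-type flies came from the same cross without the mutation. The paper also reports that sesB1 females are essentially sterile, and calls the array flies an F1 hybrid without naming the genotype of the mothers. Both parental stocks of the mutant had been backcrossed for many generations, all females were virgins, and the X chromosome of the males came from the Canton S mothers. The flies were 2 days old by the sample labels and the methods, whereas the series text gives 1 day. The labels call the arrays of a group biological replicates.

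sesB encodes the main ADP/ATP translocase of the fly, the carrier in the inner mitochondrial membrane that exports ATP and imports ADP. Ovaries, testes and accessory glands make up much of the RNA of a whole adult fly, and most transcripts that differ between the sexes come from them. A genotype can thus change a sex-biased transcript in a whole fly through the tissue in which it is made as well as through the gene. In whole-fly RNA, fewer cells of a type and less RNA per cell cannot be told apart. For that reason the genes expressed alike in both sexes are given apart from the sex-biased genes.

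The deposited values are log2 signals from which the median of the probeset was subtracted, and carry differences between arrays without brightness. Within groups the correlation between arrays lay between 0.855 and 0.982 (Pearson's r over probesets). Markers of the reproductive tissues lay on the side of the labelled sex in every array, but 4 arrays held more of the transcripts of the other sex. The median of 12 ovary genes was -0.73 in wild-type male 2 and -3.63 in sesB1 male 4, against -4.81 to -5.19 in the other 5 male arrays. The median of 9 accessory gland and ejaculatory duct genes was -2.13 in sesB1 female 4 and -4.23 in sesB1 female 2, against -5.85 to -6.07 in the other 5 female arrays. Within the females, the ovary median was also low in sesB1 female 3, at 0.73, against 2.19 to 2.73 in the other 6. The lists of genes of reproductive tissues below are given with and without the 4 arrays. Several genes of these lists are themselves markers, so their values without the 4 arrays are not independent of that choice.

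**Figure D1:**
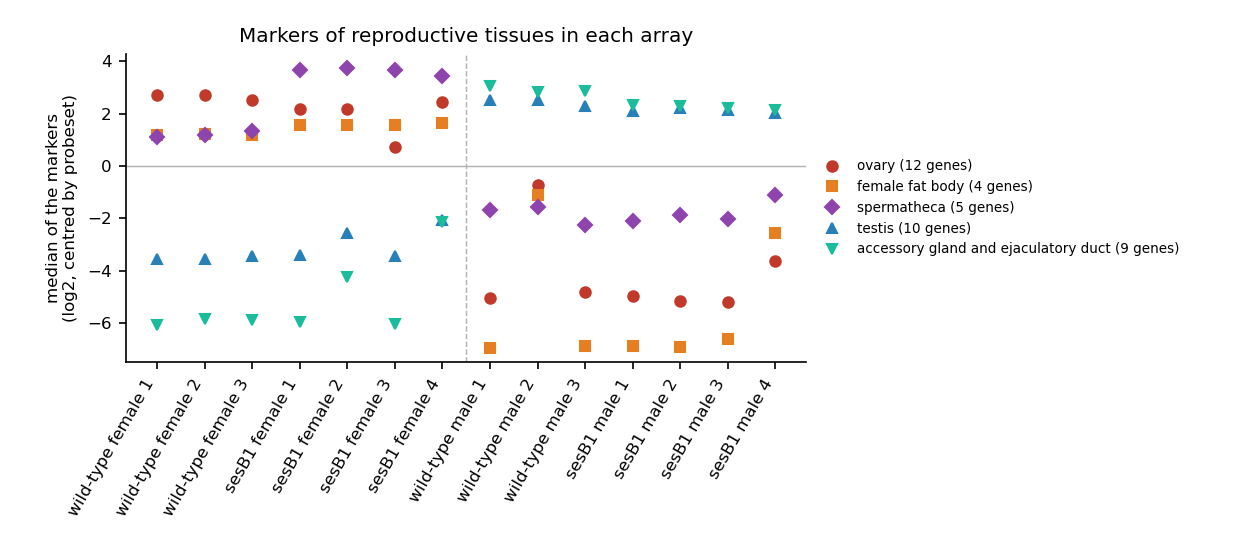
Median of the markers of each reproductive tissue in each of the 14 arrays, in log2 units centred by probeset, with females left and males right of the dashed line. Wild-type male 2 and sesB1 male 4 stand above the other males for ovary and female fat body markers, and sesB1 females 2 and 4 stand above the other females for testis and accessory gland markers.

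sesB itself showed no measured difference in response. Its values were -0.06, -0.14 and -0.09 in wild-type females, -0.14, -0.07, 0.04 and -0.14 in sesB1 females, -0.03, 0.08 and 0.18 in wild-type males, and 0.05, 0.03, 0.11 and 0.10 in sesB1 males. The groups overlapped in both sexes, and the interaction was 0.02 (SE 0.10, adjusted p = 0.916). The mutation changes the coding sequence, so the level of the transcript does not check the labels. Ant2, the second translocase gene, was male-biased and rose by 0.35 log2 in females while it fell by 0.37 log2 in males, an interaction of 0.72 (SE 0.12, adjusted p = 0.000742). After quantile normalization its interaction was 0.17 (adjusted p = 0.278).

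The interaction passed an adjusted p of 0.05 for 5183 of 18769 probesets (27.6%), 2178 with the more positive change in females (11.6%) and 3005 with the more negative (16.0%). The shares differed widely between the classes. Among alike probesets 1722 passed (13.5%), among female-biased probesets 2236 (65.8%) and among male-biased probesets 1225 (46.3%). The sex-biased probesets were 32.2% of those tested and held 66.8% of the calls. The direction was nearly uniform in each sex-biased class. Of the female-biased calls 99.1% were more negative in females, and of the male-biased calls 97.2% were more positive in females. Among alike calls 966 (7.59% of alike probesets) were more positive in females and 756 (5.94%) were more negative. The share of calls more positive in females was 56.1%, a split that turned to 46.3% more positive when each array was centred on its own median and to 41.4% after quantile normalization. The gene lists below use 1 probeset per gene, whereas the class shares cover all probesets, also those without a symbol. In a fit with 1 probeset per gene, 1441 of 6866 alike, 1987 of 2847 female-biased and 1055 of 2268 male-biased genes were called. The share called was thus higher among alike genes than among alike probesets. A list above 7.59% or 5.94% need not exceed other alike genes.

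In the median female-biased probeset the interaction was -0.52 log2 (quartiles -0.73 and -0.34). The change lay in the females, where the median was -0.50, against -0.003 in males. The sex difference of these probesets accordingly went from a median of 1.73 log2 in wild-type flies to 1.2 log2 in sesB1 flies. In the median male-biased probeset the interaction was 0.50 log2 (quartiles 0.22 and 0.80), with a median change of 0.20 in females and -0.22 in males. Here the sex difference went from -2.80 to -2.42 log2. In the median alike probeset the interaction was 0.02 (quartiles -0.11 and 0.17), and both changes were close to 0, at 0.03 in females and 0.01 in males.

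The interaction followed the wild-type sex difference inside the alike class too. The median was 0.40 for the 1222 probesets between 0.5 and 1 log2 higher in wild-type males, 0.15 for the 2643 up to 0.5 log2 higher in males, -0.004 for the 7342 up to 0.5 log2 higher in females and -0.24 for the 1520 between 0.5 and 1 log2 higher in females. The share called in these bins was 44.3%, 15.4%, 3.95% and 31.8%. Past the boundaries it reached 64.6% in the bin from 1 to 1.5 log2 on the male side and 72.6% in the bin from 2 to 3 log2 on the female side. The alike class as drawn at 1 log2 therefore still contained probesets of moderate sex bias. The median of the bin is given for some genes and lists below, and most single genes are given without it. The same wild-type arrays enter the class and the interaction, so their noise is shared by both. With the class taken from wild-type female 1 and wild-type male 1 and the interaction fitted without those arrays, the medians were 0.004 in the alike class, -0.46 in the female-biased class and 0.49 in the male-biased class.

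**Figure D2:**
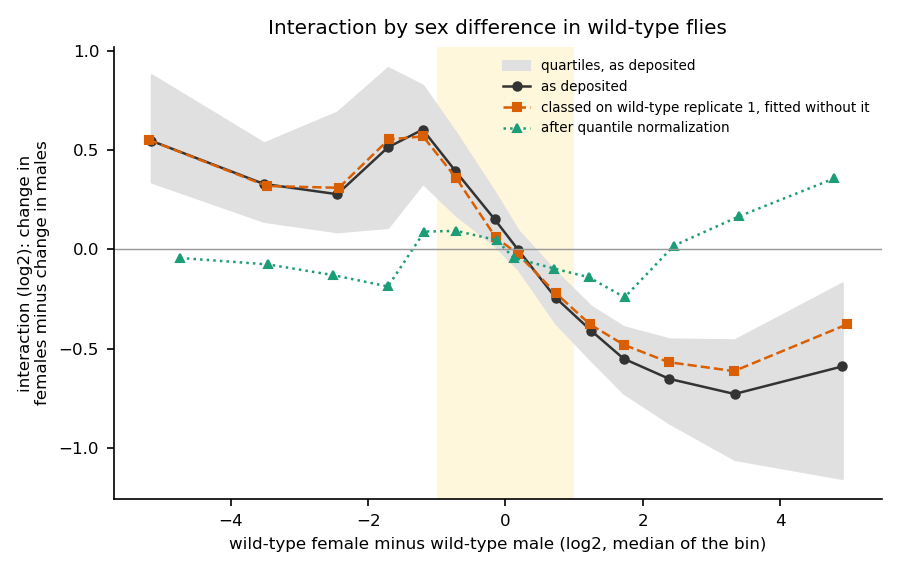
Median interaction (log2) in bins of the wild-type sex difference (log2, placed at the median of each bin), with the quartiles shaded for the values as deposited and the alike class in yellow. The curve reaches 0.60 on the male side and -0.73 on the female side, is little changed when the bins come from wild-type arrays left out of the fit, and is flatter and partly of the other sign after quantile normalization.

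The counts and the class medians changed with the scaling between arrays. Centring each array on its median left 1581 alike, 1835 female-biased and 1258 male-biased calls. Quantile normalization of all 14 arrays left 860, 526 and 395, the class medians became -0.02 in the female-biased and -0.07 in the male-biased class, and 38% of the female-biased calls were then more positive in females. Sex-biased probesets hold the extreme centred values of every array, and quantile normalization makes those extremes the same in all arrays by construction. Whether this property moved the class medians was not tested. With quantile normalization of the alike probesets alone, an alternative chosen after the data were seen, 1234 alike probesets were called. A call was counted as held under 4 scalings where it passed with the same sign as deposited, with centring on the array median, with centring on the median of the alike probesets and with quantile normalization. This left 1171 probesets (6.24%), with 482 more positive in females (2.57%) and 689 more negative (3.67%). They were 586 alike (261 more positive in females), 351 female-biased (17 more positive) and 234 male-biased (204 more positive).

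Without the 4 arrays that held more transcripts of the other sex, 1694 alike, 2531 female-biased and 1019 male-biased probesets were called. Leaving them out also made every group but the wild-type females smaller, so a lost call need not mean a smaller interaction. The class medians were 0.09, -0.66 and 0.40. Calls made with the same sign both with and without those arrays numbered 1169 alike, 2067 female-biased and 889 male-biased probesets. The sesB1 females left were 1 and 3, and sesB1 female 3 was the one low for ovary markers (0.73). It therefore weighed more in the set without the 4 arrays. Leaving out sesB1 female 3 alone gave a female-biased median of -0.47, against -0.52 with all 14 arrays.

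The genes next to the boundary show how little separates the classes there. CG32099 (0.99996 log2) and pkaap (0.9992 log2) fell just inside on the female side and stc (1.001) and mRpL35 (1.0012) just outside. On the male side Gasp (-1) and shot (-0.99956) fell just inside and Arc1 (-1.001) and Ppcs (-1.0017) just outside, and 891 probesets lay within 0.1 log2 of a boundary. Arc1, which encodes a capsid-forming protein that carries its own mRNA between neurons and muscle, has a pair of probesets, 1 on either side. The one classed as male-biased gave an interaction of 2.24 (SE 0.14, adjusted p = 2.18e-07), with changes of 3.28 in females and 1.03 in males. The one classed as alike gave 3.01 (SE 0.23, adjusted p = 1.19e-06), with changes of 3.84 and 0.82. Arc1 was named after its values were seen.

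Over all 18769 probesets the change from wild type to sesB1 passed upward for 2912 in females (15.5%) and 1912 in males (10.2%), and downward for 3828 in females (20.4%) and 1502 in males (8.0%). Among the 1722 alike calls, the change from wild type passed in females only for 903 probesets (486 higher, 417 lower) and in males only for 352 (181 higher, 171 lower). It passed in both sexes in the same direction for 251, of which 172 changed more in females and 79 more in males. For 126 neither single change passed. In 90 probesets both changes passed in opposite directions, 69 higher in females and lower in males and 21 the reverse, and 77 of the 90 were held under 4 scalings. Only 106 of the alike calls (0.833% of alike probesets, against 3.99% of all) reached 1 log2. Of these 80 were more positive in females and 26 more negative. Passing in 1 sex alone does not show a difference between the sexes, which here rests on the interaction.

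**Figure D3:**
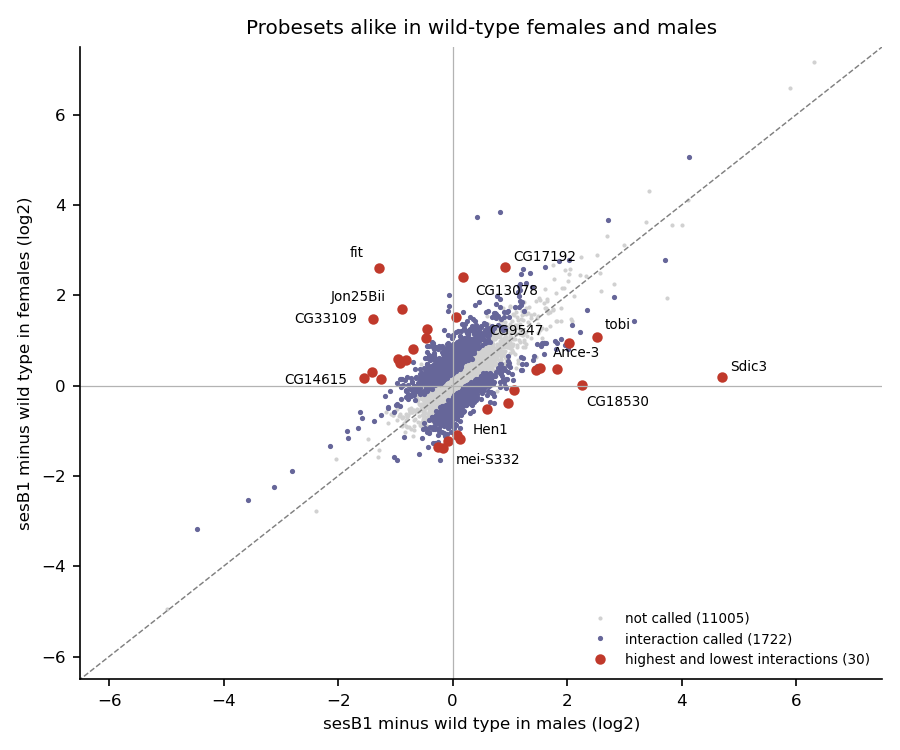
Change from wild type to sesB1 in females against that in males (log2) for the 12727 alike probesets, with the dashed line where both are equal. The 1722 calls lie off the line, and the 30 genes with the highest and lowest interactions that met the naming rule include fit and CG33109 at the upper left, where the changes oppose, and Sdic3 at the far right, changed in males.

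Among alike genes that met the naming rule the highest interaction was that of fit, which encodes a protein secreted by the fat body of the head that signals satiety after a protein meal. Its values were -0.14, -0.18 and 0.71 in wild-type females and 2.94, 2.38, 2.78 and 2.90 in sesB1 females. In males they were -0.09, 0.13 and 0.09 in the wild type and -1.53, -1.01, -1.05 and -1.39 in sesB1. No array of a mutant group overlapped its wild-type group, and the shift was upward in females and downward in males. The transcript rose 6.13-fold in females (2.62 log2, SE 0.20, adjusted p = 2.11e-07) and fell 2.44-fold in males (-1.29 log2, SE 0.20, adjusted p = 0.000329), an interaction of 3.90 (SE 0.28, adjusted p = 8.74e-07). The median of its bin was -0.004, and without the 4 arrays the value was 3.92.

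Only 4 genes changed by at least 1 log2 in opposite directions in the sexes: fit, CG33109, CG14500 and wbl. CG33109 measured -0.41, -0.76 and -0.19 in wild-type females, 0.97, 1.05, 1.08 and 1.01 in sesB1 females, 0.63, 0.19 and 0.48 in wild-type males and -1.05, -0.97, -0.80 and -1.01 in sesB1 males. Wild-type males thus lay above wild-type females, and in the mutant the order was turned, with no overlap in either sex. The interaction was 2.87 (SE 0.18, adjusted p = 1.71e-07), from a rise of 1.48 log2 in females and a change of -1.39 log2 in males. CG14500, male-biased by 1.60 log2 in wild-type flies, gave 2.51 (SE 0.26, adjusted p = 1.74e-05) from 1.16 and -1.36 log2. wbl encodes an endoplasmic reticulum protein needed in the ovary for the dorsoventral axis of the embryo, and was here male-biased by 2.70 log2. It measured -1.23, -1.32 and -0.85 in wild-type females and -0.07, 0.01, -0.20 and -0.13 in sesB1 females. Its male values were 1.67, 1.38 and 1.64 in the wild type and 0.38, 0.23, 0.18 and -0.01 in sesB1, so that females and males nearly met in the mutant. The interaction was 2.40 (SE 0.17, adjusted p = 5.86e-07). In a list of 9 sex-dependent fat body genes, fit, CG33109, CG14500, Obp99b and Cyp4d21 were called, all more positive in females, and the first 3 of these were held under 4 scalings. They were 2 of 2 alike and 3 of 4 male-biased members, against 7.59% and 45.0% of the probesets of those classes. This list, as the others, was drawn up with earlier results of these data known, so its counts are no independent support. Without the 4 arrays 4 of the 9 genes were called, Cyp4d21 no longer among them, and the median of the list went from 1.14 to 0.74. Obp99b rose in both sexes, by 6.85 log2 in females and 4.69 log2 in males, and its interaction of 2.16 was 0.24 after quantile normalization (adjusted p = 0.821). The yolk protein genes Yp1, Yp2 and Yp3 of the same list were not called, with interactions of 0.48 to 0.93. Over the yolk list, these genes and the yolk receptor gene yl, the median level was -1.5 in wild-type male 2 and -2.71 in sesB1 male 4 against -6.60 to -6.95 in the other males, and the median interaction went from 0.66 to -0.21 without the 4 arrays.

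**Figure D4:**
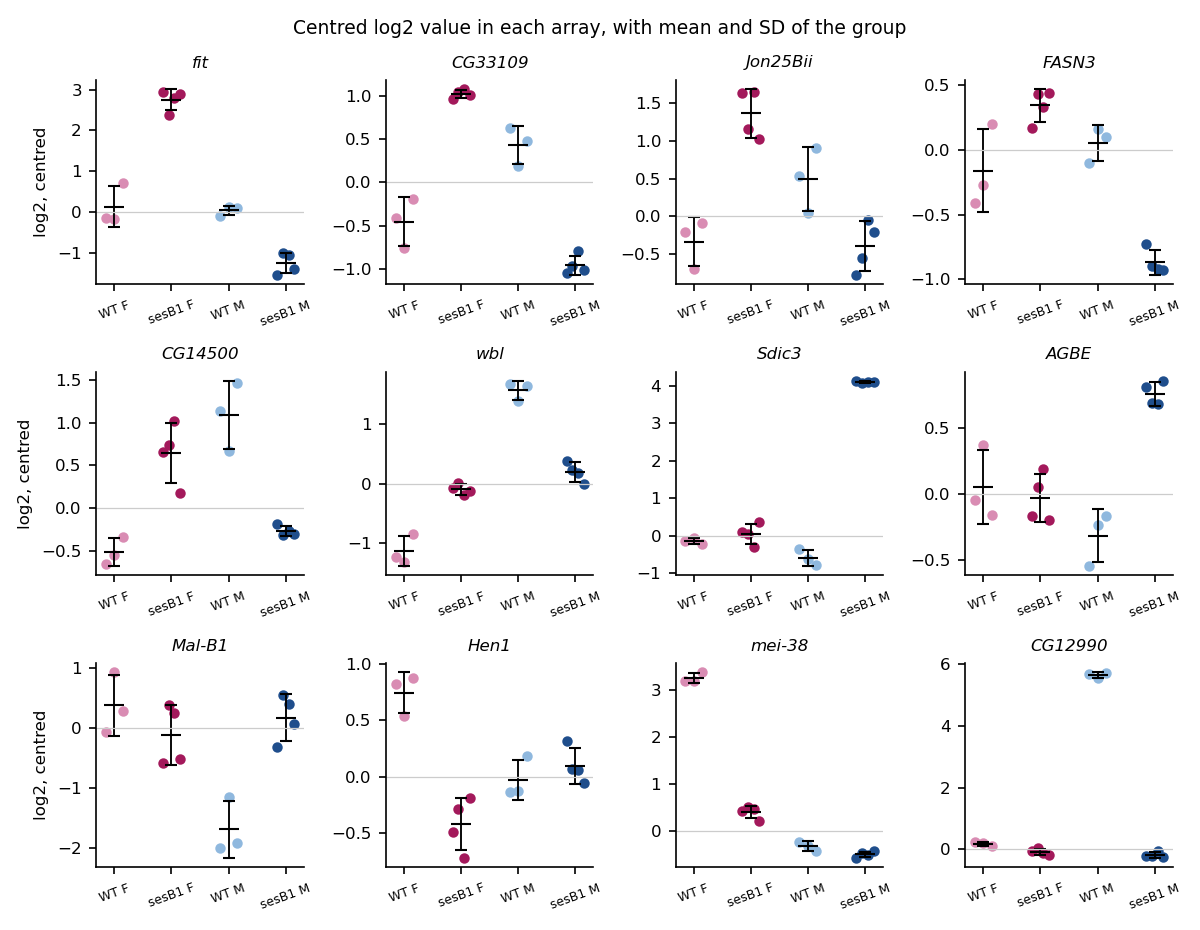
Centred log2 values of 12 named genes in each array of wild-type (WT) and sesB1 females (F) and males (M), with the mean and SD of each group as bars. fit, CG33109, CG14500 and wbl move in opposite directions in the sexes, Sdic3, AGBE and Mal-B1 move up in males, Hen1 and mei-38 move down in females, and CG12990 falls in males to the level of females.

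The serine proteases of the midgut, which digest dietary protein, were more positive in females as a group. Of 27 measured Jonah, trypsin and Ser genes 20 were alike, and 10 of the 20 were called, all more positive in females, against 7.59% of alike probesets. Of these 20 genes 9 were held under 4 scalings. The median interaction of the 20 was 0.63, against a median of -0.004 for the bins in which they fell. Jon25Bii measured -0.21, -0.70 and -0.09 in wild-type females, 1.63, 1.16, 1.64 and 1.02 in sesB1 females, 0.53, 0.05 and 0.90 in wild-type males and -0.77, -0.55, -0.05 and -0.20 in sesB1 males. Its arrays did not overlap in either sex. It rose 3.25-fold in females (adjusted p = 2.90e-05) and fell 1.85-fold in males (adjusted p = 0.0124), an interaction of 2.58 (SE 0.32, adjusted p = 7.35e-05). Jon44E gave 1.54 (SE 0.23), from 0.59 log2 in females and -0.95 log2 in males. All 5 male-biased members were called as well, CG18179 with an interaction of 4.29 (SE 0.32, adjusted p = 1.10e-06) and Jon25Bi with 2.61 (SE 0.24, adjusted p = 6.66e-06). The trypsin genes alphaTry, betaTry and etaTry, at 0.13, 0.26 and 0.21, were not called. Ser6, female-biased, was the only member called in the other direction (-1.48), and it did not pass after quantile normalization.

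Other alike genes with a more positive change in females are given by the sex with the larger change. The first of them changed more in females. CG13078 measured -0.06, 0.07 and 0.03 in wild-type females against 2.26, 2.31, 2.87 and 2.28 in sesB1 females, while its male groups overlapped between -0.48 and 0.05. It rose 5.34-fold in females, with a male change of 0.18 log2 (adjusted p = 0.522) and an interaction of 2.24 (SE 0.21, adjusted p = 8.44e-06). CG17192, a predicted lipase, rose in both sexes, 6.18-fold in females and 1.88-fold in males (interaction 1.72, SE 0.18, adjusted p = 1.86e-05). CG8952 (1.46), CG11912 (1.71) and CG4020 (1.52) rose by 1.04 to 1.51 log2 in females, and CG11912 and CG4020 fell by 0.45 and 0.47 log2 in males. The next changed more in males, and some of them, CG43673 (adjusted p = 0.0371), FASN3 and CG4734, also passed upward in females. CG14615 (-1.55 log2 in males, interaction 1.72), CG43673 (-1.41, 1.71) and Lectin-galC1 (-1.26, 1.41), which encodes a galactose-binding lectin, fell in males with changes of 0.15 to 0.29 log2 in females. FASN3, a fatty acid synthase, measured -0.41, -0.27 and 0.20 in wild-type females and 0.17, 0.43, 0.33 and 0.44 in sesB1 females, a rise of 0.50 log2 with overlap. In males it measured -0.10, 0.16 and 0.10 against -0.73, -0.90, -0.92 and -0.93, with no overlap, and the interaction was 1.43 (SE 0.18, adjusted p = 7.36e-05). CG4734 changed by 0.57 log2 in females and -0.82 log2 in males, with no overlap in either sex (interaction 1.385, SE 0.14, adjusted p = 1.605e-05).

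The lowest interaction among these alike genes was that of Sdic3, of the Sdic genes on the X chromosome, which encode an intermediate chain of the sperm axonemal dynein. Its values were -0.14, -0.05 and -0.21 in wild-type females and 0.11, 0.05, -0.29 and 0.36 in sesB1 females. In males they were -0.36, -0.62 and -0.79 in the wild type and 4.14, 4.08, 4.10 and 4.11 in sesB1. The female groups overlapped, and every sesB1 male lay far above every wild-type male. The transcript was 26-fold higher in sesB1 males (4.70 log2, SE 0.13, adjusted p = 3.76e-12), and the interaction was -4.51 (SE 0.18, adjusted p = 1.15e-09). The Sdic genes are near-identical tandem copies, so the probeset cannot be assigned to Sdic3 alone. CG18530 showed the same pattern with values of 2.29, 2.39, 2.06 and 2.05 in sesB1 males and -0.44 to 0.06 in all other arrays (interaction -2.24, SE 0.19, adjusted p = 3.60e-06).

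Several genes of carbohydrate metabolism and fatty acid breakdown changed more upward in males. Among 13 alike lipases 3 were called more positive in females and 2 more negative, against 7.59% and 5.94% of alike probesets. The 6 alike genes of fatty acid synthesis and elongation gave 1 call each way. Of the male-biased members 2 of 3 lipases and 3 of 3 synthesis genes were called more positive, against 45.0% of male-biased probesets. Over all 11 synthesis and elongation genes the median was 0.80, against 0.15 for their bins. AGBE, the glycogen branching enzyme, measured -0.05, 0.37 and -0.16 in wild-type females, -0.17, 0.05, 0.19 and -0.20 in sesB1 females, -0.55, -0.24 and -0.17 in wild-type males and 0.81, 0.69, 0.68 and 0.86 in sesB1 males. Females overlapped and males did not, and the interaction was -1.17 (SE 0.19, adjusted p = 0.000455). tobi, an alpha-glucosidase whose expression responds to insulin and glucagon-like signals, rose 5.72-fold in males and 2.10-fold in females. Its wild-type females measured -1.49, 0.03 and -1.48, and its sesB1 females -0.03, 0.11, 0.82 and -0.53. Its interaction of -1.44 (SE 0.48, adjusted p = 0.0370) did not pass without the 4 arrays (-1.31, adjusted p = 0.0936). Mal-B1, a female-biased maltase, rose 3.63-fold in males, where its values were -2.0, -1.14 and -1.91 in the wild type and -0.32, 0.55, 0.40 and 0.07 in sesB1. Its female change was -0.49 log2 (adjusted p = 0.239) and the interaction was -2.35 (SE 0.42, adjusted p = 0.00101). Of 9 alike maltases and alpha-glucosidases 3 were called, all more negative in females, against 5.94% of alike probesets, with a median of -0.41 for the 9 and 0.15 for their bins. Wild-type female 2 stood apart, with a median of -0.15 over all 11 genes of the list, against -1.11 and -1.10 in the other wild-type females. The part of this array in the list's interaction was not tested. Mal-A3, which was male-biased, and Mal-A4 gave 1.15 and 0.92 and were not called. In fatty acid beta-oxidation, by which mitochondria and peroxisomes break down fatty acids, 4 of 7 alike and 2 of 3 female-biased genes were called, all more negative in females and all 6 held under 4 scalings. The shares of the classes called in that direction were 5.94% and 65.2%, so the female-biased members were called at about the share of their class. yip2, a thiolase, rose 2.32-fold in males and 1.40-fold in females (interaction -0.72, adjusted p = 0.00144). scu, a hydroxyacyl-CoA dehydrogenase, rose 1.71-fold in males (adjusted p = 7.95e-07), with a female change of -0.14 log2 (interaction -0.91, adjusted p = 1.38e-05). The median of the 10 genes was -0.54, against -0.24 for their bins. Ance-3, a relative of angiotensin-converting enzyme, rose 3.55-fold in males and 1.29-fold in females, with -1.47 for the probeset used and -1.07 for its other probeset.

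A further set of alike genes was lower in sesB1 females with no called change in males. Hen1, the methyltransferase that protects the ends of small RNAs, measured 0.82, 0.54 and 0.88 in wild-type females and -0.49, -0.29, -0.72 and -0.19 in sesB1 females. Males of both genotypes lay between -0.14 and 0.32. The interaction was -1.30 (SE 0.19, adjusted p = 0.000222), and the bin median was -0.24. mei-S332, which protects the cohesion of sister chromatids at centromeres, fell by 1.37 log2 in females (interaction -1.21, SE 0.22, adjusted p = 0.00112). The kinesin gene cmet, nesd, needed for cytokinesis, and the fatty acid elongase gene Elo68beta fell by 1.35, 1.23 and 1.09 log2, with interactions of -1.09, -1.14 and -1.17. sesB1 female 3, low for ovary markers, was the lowest array for Hen1, mei-S332, cmet and nesd (-0.72, -1.95, -1.0 and -0.64) but not for Elo68beta. The part of the ovary in these values was not tested.

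Mitochondrial genes showed little interaction in the respiratory chain and a uniform direction in the ribosome. Of 69 genes of the respiratory chain and ATP synthase, which turn substrates into ATP, 50 were alike and 1 was called. It was UQCR-Q of complex III, at 0.34 (adjusted p = 0.0265), which was -0.02 after quantile normalization. Of all alike probesets 7.59% were called more positive in females. The median of the 69 was 0.01, against 0.15 for their bins. None of the 19 male-biased members was called, against 45.0% of male-biased probesets more positive in females. The TCA cycle had 1 call in each direction among 14 alike genes, against 7.59% and 5.94% of alike probesets. The more negative was Mdh1 (-0.59, SE 0.08, adjusted p = 0.000172). Glycolysis had 1 call among 10 alike genes, against the same 5.94%. It was Tpi at -0.26 (adjusted p = 0.0482), which did not pass without the 4 arrays (-0.24, adjusted p = 0.173). Among 69 mitochondrial ribosomal proteins, which translate the mitochondrial genome, 9 of 27 alike and 39 of 42 female-biased genes were called, all more negative in females, against 5.94% and 65.2% of the probesets of those classes, with a median of -0.41 for the 69 and -0.41 for their bins. mRpL3 gave -0.84 (SE 0.11, adjusted p = 9.35e-05), from a rise of 0.69 log2 in males and a female change of -0.15 log2. The median change of the list was -0.02 in females and 0.39 in males, whereas that of female-biased probesets lay in the females. Of 10 alike mitochondrial carriers and translocases 2 were more negative in females, aralar1 (-0.44) and SCaMC (-0.37), and 1 was more positive, CG5254 (0.71). The shares of alike probesets called so were 5.94% and 7.59%.

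Among the female-biased genes were those of the ovary and of dividing cells. Of 22 female-biased genes of DNA replication and mitosis 17 were called, all more negative in females, against 65.2% of female-biased probesets, with a median of -1.03 for the 22 and -0.59 for their bins. No gene of the list was held under 4 scalings, and the median over all 25 genes was -0.02 after quantile normalization. Of the 25 genes 23 were called without the 4 arrays, against 17 with them, and their median went from -1.0 to -1.32. In that smaller set the sesB1 females were 1 and 3, and sesB1 female 3 was low for ovary markers. cid, the centromeric histone, gave -1.76 (SE 0.24, adjusted p = 0.000125) and aurB, a mitotic kinase, -1.63 (SE 0.23, adjusted p = 0.000189), and after quantile normalization they gave -0.40 and -0.82 and did not pass. bam, which starts differentiation of germline cells, gave -2.21 (SE 0.26, adjusted p = 4.77e-05), -0.99 after quantile normalization (adjusted p = 0.156) and -2.71 without the 4 arrays. In the piRNA pathway, which silences transposons in the germline, 10 of 17 female-biased genes were called, all more negative in females, against 65.2% of the class, and krimp (-1.62) and squ (-1.12) were held under 4 scalings. Of all 21 genes of the list 13 were called without the 4 arrays, and their median went from -0.545 to -0.77. mei-38 encodes a spindle protein. It measured 3.20, 3.20 and 3.38 in wild-type females, 0.43, 0.51, 0.47 and 0.22 in sesB1 females, -0.22, -0.31 and -0.42 in wild-type males and -0.56, -0.46, -0.50 and -0.43 in sesB1 males. The sesB1 females lay far below the wild-type females and above all males. It fell 7.21-fold in females (adjusted p = 9.22e-12), and the interaction was -2.68 (SE 0.12, adjusted p = 4.02e-09). Ilp8, a relaxin-like peptide, fell 5.68-fold in females (interaction -2.61, SE 0.29, adjusted p = 3.67e-05), with values of 3.45, 2.76 and 3.44 against 1.10, 0.93, 0.14 and 0.67. The chorion genes, which build the outer eggshell, gave no call among 7 female-biased members, with a median of 0.14. Of female-biased probesets 65.2% were called more negative in females. Without the 4 arrays 6 of the 7 were called and the median was -1.72. Chorion genes are among the ovary markers that set wild-type male 2 and sesB1 male 4 apart, so these values are no independent test. The sesB1 females left were 1 and 3. The chorion median stood at -0.69 in wild-type male 2 and at -5.22 to -5.52 in the other male arrays. In sesB1 females 1 to 4 it was 2.46, 2.18, 0.69 and 2.72, against 3.56 to 3.92 in wild-type females. Of 10 vitelline membrane and early eggshell genes, all female-biased, psd (1.23) and ndl (1.08) were called, more positive in females, against 0.618% of female-biased probesets. When the 4 arrays were left out 4 of the 10 were called, and ndl did not pass without the 4 arrays (0.80, adjusted p = 0.052).

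A small number of female-biased genes were more positive in females, 21 of 2236 calls (0.618% of female-biased probesets). Of 5 female-biased spermathecal proteases, which are secreted into the sperm storage organs, 4 were among them. Ser12 measured 1.10, 1.24 and 1.32 in wild-type females and 3.72, 3.98 and 3.87 in the 3 sesB1 females with a value, the value of sesB1 female 4 being missing. Its male groups overlapped between -2.02 and -1.10. It rose 6.21-fold in females and gave an interaction of 2.72 (SE 0.25, adjusted p = 9.65e-06), against a bin median of -0.65. CG9897 gave 2.58, CG17239 2.44 and CG32834 1.76, all held under 4 scalings. Over all 7 genes of the list 5 were called without the 4 arrays, and the median went from 1.76 to 2.17. The antimicrobial defensin gene Def (1.27, SE 0.28, adjusted p = 0.00409) and the sulfotransferase gene St4 (1.28, SE 0.26, adjusted p = 0.00221) were 2 others.

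In the male-biased class, 4 of the 5 highest interactions among genes of the naming rule came from a fall in sesB1 males, and the remaining one, CG18179, from a rise in females. CG12990, on the X chromosome, measured 5.69, 5.55 and 5.71 in wild-type males and -0.22, -0.20, -0.06 and -0.25 in sesB1 males, while all female arrays lay between -0.17 and 0.23. The fall of 5.83 log2 (SE 0.08, adjusted p = 6e-16) removed the sex difference, and the interaction was 5.59 (SE 0.11, adjusted p = 1.57e-13). CG6788, also on the X chromosome, fell from 5.74, 5.09 and 6.0 to between -0.19 and 0.26 in males (interaction 5.57, SE 0.25). CG18301 fell by 4.23 log2 and CG2663 by 4.07 log2 in males, with changes of -0.01 and 0.20 log2 in females, and their sesB1 males still lay above all females. Only 34 of 1225 male-biased calls (1.29% of male-biased probesets) were more negative in females. Cpr67Fb, a cuticle protein, was the lowest of those named, with 1.18, 1.76 and 0.63 in wild-type males and 4.04, 3.95, 3.92 and 3.68 in sesB1 males (interaction -2.57, SE 0.32, adjusted p = 7.42e-05). Its female arrays stayed between -1.31 and -0.63. Rpt3R, a proteasome ATPase of the male germline, fell by 1.23 log2 in females (interaction -1.15, SE 0.16, adjusted p = 0.000189). Of 27 male-biased accessory gland and seminal fluid genes 16 were called, all more positive in females, against 45.0% of male-biased probesets, with a median of 1.5. Their level in female arrays moved with sesB1 female 4, which stood at -2.13 against -3.31 to -3.74, and over all 29 genes of the list the median went from 1.48 to 0.69 without the 4 arrays while the calls went from 16 to 21. Late spermatid genes gave 6 calls among 24 male-biased members, a share below the 45.0% of the class, and the median over all 26 went from 0.86 to 0.24 without the 4 arrays.

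Genes of muscle and nervous tissue were more positive in females to about the extent of other genes of their sex difference. Of 16 alike contractile genes 9 were called, all more positive in females, against 7.59% of alike probesets, with a median of 0.47 against 0.40 for their bins, and 1 was held under 4 scalings. All 13 male-biased neuronal and synaptic genes and all 8 male-biased phototransduction genes were called, more positive in females, against 45.0% of male-biased probesets. Of the whole lists 2 neuronal genes and 0 phototransduction genes were held under 4 scalings. Over each whole list the median was 0.60 for 23 neuronal genes (bins 0.51) and 0.63 for 13 phototransduction genes (bins 0.60), and after quantile normalization the medians were 0.18 and 0.23. Without the 4 arrays 6 of the 23 neuronal genes were called, against 15 with them, and 7 of the 13 phototransduction genes, against 10. The medians in that smaller set of arrays were 0.48 and 0.56. elav, the pan-neuronal RNA-binding protein, gave 0.91 (SE 0.14, adjusted p = 0.000312).

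**Figure D5:**
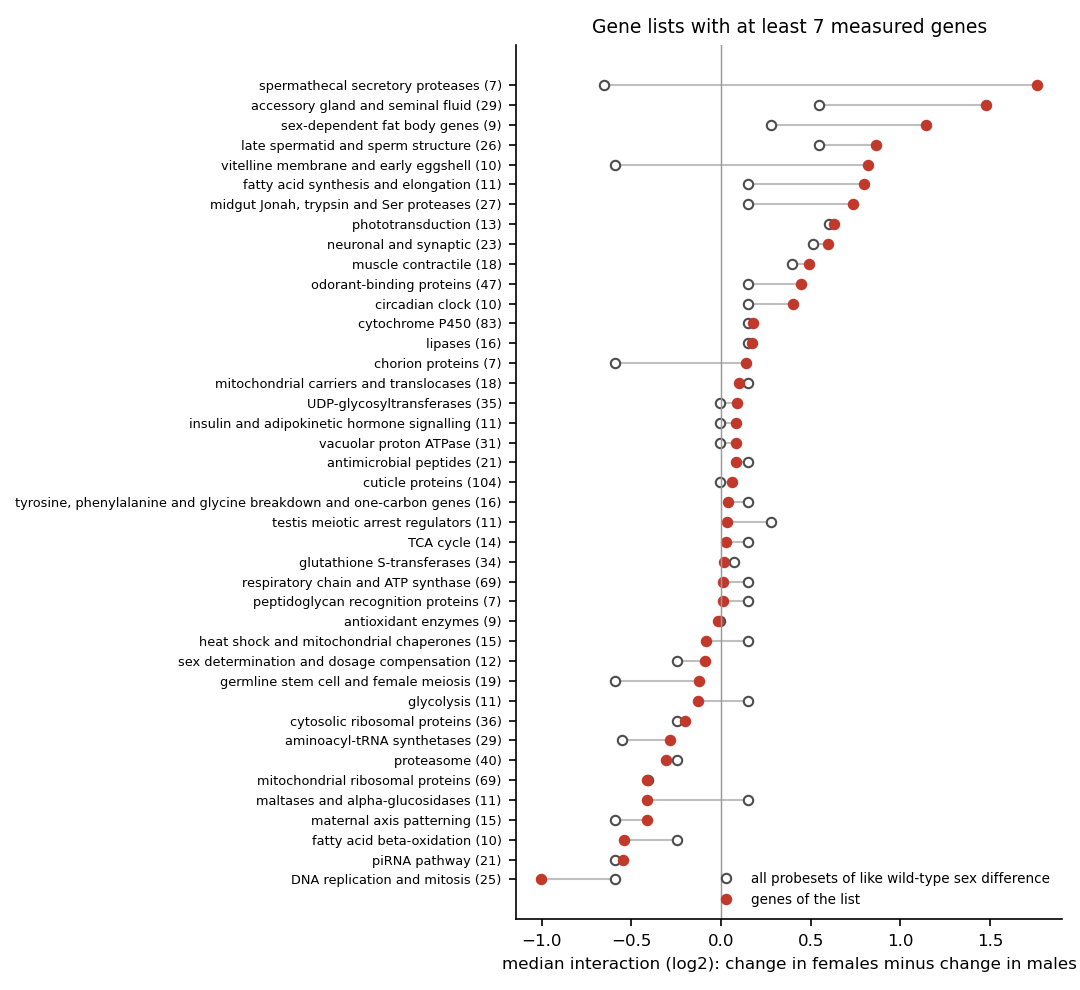
Median interaction (log2) of the 41 gene lists with at least 7 measured genes (filled circles, number of genes in parentheses), beside the median over its genes of the median interaction of all probesets in the same bin of the wild-type sex difference (open circles). Neuronal, muscle, piRNA and mitochondrial ribosomal lists lie near their open circles, midgut and spermathecal proteases lie above, and maltases, beta-oxidation and DNA replication lie below.

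In a list of 11 genes of insulin and adipokinetic hormone signalling 9 were alike, and 3 of these were called, against 13.5% of alike probesets. Ilp5, an insulin-like peptide of the brain, fell 1.87-fold in males (adjusted p = 1.79e-05) with a female change of 0.00 log2 (adjusted p = 0.999), an interaction of 0.91 (SE 0.15, adjusted p = 0.000464). ImpL2, a secreted antagonist of insulin signalling, fell 1.47-fold in males (interaction 0.81, SE 0.15, adjusted p = 0.00149). The other alike members of that list were not called, with the exception of AkhR (-0.32). Of 15 heat shock and mitochondrial chaperone genes 9 were called, 4 more positive in females and 5 more negative, against 27.6% of all probesets, and 2 were held under 4 scalings. The 3 alike members among these were Roe1 (-0.57), Hsc70-5 (-0.46) and Hsc70-3 (0.39). The small heat shock protein genes Hsp27 and Hsp26, both female-biased, gave -1.10 and -0.71, and -0.13 (adjusted p = 0.910) and 0.55 (adjusted p = 0.376) after quantile normalization. Of 8 alike antioxidant genes 3 were called, again against 13.5%, with Cat (0.52) more positive and Trxr1 (-0.49) among the 2 more negative. Cat gave 0.13 (adjusted p = 0.529) after quantile normalization. Among 15 alike antimicrobial peptides 1 was called, against 13.5% of alike probesets. It was BomT2 (-0.66), which did not pass without the 4 arrays (-0.48, adjusted p = 0.0639). Cytochrome P450 genes gave 15 positive and 3 negative calls among 60 alike members, against 7.59% and 5.94% of alike probesets, with a median of 0.13 against 0.15 for their bins, and 25 alike glutathione S-transferases gave 5 and 2. Of 95 alike cuticle genes 5 were called, 4 of them more positive in females, against 13.5% of alike probesets, and over all 104 cuticle genes 11 were called with the 4 arrays and 18 without them.

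Cbs, which encodes cystathionine beta-synthase, was more negative in females. It was female-biased by 2.54 log2, rose 2.55-fold in males (adjusted p = 2.59e-07) with a female change of -0.14 log2, and gave -1.49 (SE 0.14, adjusted p = 9.08e-06). In a list of tyrosine, phenylalanine, glycine and one-carbon genes all 6 female-biased genes were called more negative in females, 5 of them held under 4 scalings, and all 4 male-biased genes were called more positive, 1 of them held. These are the directions of nearly all calls of the classes, of which 65.2% and 45.0% were called so. Among the latter Hpd, of tyrosine breakdown, gave 2.04, and -0.27 after quantile normalization. By chromosome the share of alike genes called was 19.4% for the X, on which sesB lies, and between 17.0% and 21.0% for the autosomal arms and chromosome 4. These shares are over genes with 1 probeset each, whereas 13.5% of all alike probesets were called.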

How the data were processed

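Whole-fly total RNA was hybridized to 14 arrays. By the methods of the study the authors normalized the raw data in GeneSpring GX (version and summarisation method not given in the sources used here), and the deposited value table holds a log2 score per probeset, centred by the authors on the median of the 14 arrays, so signal over background is unknown and the number of arrays limits the precision. Its 30 spreadsheet date serials, 1 in each of 30 probesets, were treated as missing. Of 18952 probesets 183 controls were left out. A single symbol was given for 13646 probesets, several for 402 and none for 4721. For genes with several probesets 1 was used, the first by identifier with the plainest suffix.

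Group means were fitted with limma 3.58.1 (lmFit, eBayes; R 4.3.3), with Benjamini-Hochberg adjustment across all 18769 probesets. In simulated data 91 of 100 interactions of 1 log2 and 98 of 100 of 2 log2 were found, with 15 of 18569 unchanged probesets called. The simulated noise was independent between probesets, so shifts shared by many probesets of an array, such as scaling or tissue content, were not tested. The rule named the 15 highest and 15 lowest alike genes and the 5 and 5 of each sex-biased class that reached 1 log2, were held under 4 scalings and did not overlap between genotypes in at least 1 sex, genes changed oppositely by at least 1 log2, up to 3 called genes of each of 46 lists, sesB and Ant2. The text gives part of these. The members, lists and rules were chosen with earlier results of these data known. Genes named outside the rule (Arc1, Cyp4d21, Ser6, AkhR, yl, Roe1, Hsc70-5, Hsc70-3, the yolk protein, trypsin, Mal-A and mitochondrial carrier genes) were chosen after their values were seen. Alternatives were other scalings, a replicate block, array weights, other variance models, other class rules and the omission of arrays. Replicate numbers did not pair the arrays.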

Additional observations from a re-analysis of the deposited data

Results flagged for a closer look

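Single arrays stood apart from the other 3 of their group in 5 of 104 groups examined for the named genes, where chance gives about 1 in 20. CG13078 was high in sesB1 female 3 (2.87), CG4020 low in sesB1 female 4 (1.08) and in sesB1 male 4 (-0.72), Kpc2 high in sesB1 male 1 (1.05) and CG17239 high in sesB1 male 4 (-0.56).

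The response to sesB1 differed between the sexes by the interaction test for 5183 probesets, of which 1722 were alike in wild-type flies, 2236 female-biased and 1225 male-biased. It was opposite in the sexes by at least 1 log2 each way for fit (interaction 3.90), CG33109 (2.87), CG14500 (2.51) and wbl (2.40).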

How the results depend on the processing

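After quantile normalization the calls were 1781 in all, 860 alike, 526 female-biased and 395 male-biased, the medians of the sex-biased classes were -0.02472 and -0.07483, and the alike patterns became 339 in females only, 115 in both sexes alike and 30 in neither. Calls in the gene lists fell to 177 and named genes from 152 to 91. Signs turned for Hpd (-0.2711), Hsp26 (0.5508), Lsp2 (-0.3046), UQCR-Q (-0.01863), Vha68-3 (-1.059), hb (0.0123), nht (-0.04021) and tor (0.2834). Quantile normalization within each sex gave 1909, 993, 406 and 510 calls, medians of -0.03116 and -0.09782, patterns of 530, 130 and 24, 179 list calls and 100 named genes, with Hsp26 at 0.02984, RpL34a at 0.01195, UQCR-Q at -0.04521, Vha68-3 at -0.7826, nht at -0.05308 and tor at 0.1478. Quantile normalization of alike probesets alone, chosen after seeing the data, gave 505 in females only, 83 in neither and -0.0157 for UQCR-Q. The cause of these differences was not tested. Without the 4 arrays the medians were 0.09353, -0.6592 and 0.3993.

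A minimum of 1 log2 left 749, 106, 343 and 300 calls. A class boundary of 0.5 log2 gave 698 alike calls and a female-biased median of -0.4224. A boundary of 2 log2 gave 3694 alike, 870 female-biased (median -0.6651) and 619 male-biased calls (0.4468). Classes from both genotypes gave a male-biased median of 0.4132, classes from sesB1 flies 3145, 1354 and 684 calls with 0.3544, and classes from the wild-type arrays left out 1099 alike calls. Leaving out 1 array at a time gave 4315 to 5624 calls, 1360 to 1929 alike, 1905 to 2437 female-biased and 1041 to 1354 male-biased, medians of -0.002025 to 0.04835, -0.5806 to -0.4724 and 0.4541 to 0.5271, and 140 to 149 named genes. Replicate numbers did not pair the arrays (r from -0.1965 to 0.159 over 19 pairs, 5 above 0.1), and a replicate block gave 4821 calls, 1518 alike, 2112 female-biased and 1191 male-biased. Array weights, other variance models, array centring and 1 probeset per gene kept these counts within 1.5 times.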
